A study of Oryctolagus cuniculus with 54 samples.

Results

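Preterm rabbit pups were compared on day 7 after delivery (P7) and on the day of delivery (P0), in right lung RNA of 6 animals (6 libraries) of the 45 animals (54 libraries) of the series. The members were taken from the labels: 3 animals at P0 (numbers 1, 3 and 4) and 2 at P7 (numbers 3 and 4), all sequenced in run 2, with P7 animal 1, sequenced in run 3, kept aside to look at the direction of the changes. All were New Zealand White pups taken by Caesarean section on the 28th day of gestation. P0 pups breathed 21% oxygen, that is room air, for 1 h and P7 pups for 7 days, in incubators and on a milk replacer given by tube. P7 pups therefore had the age of a 35th gestational day. According to the study's methods the pups of a time point came from different dams. For reference the same run held 2 fetuses of the 28th day (F28), harvested at once without being kept in air, 2 term pups at the 35th day (T35), born on the 31st day and kept for 4 days with their mothers, and 3 preterm pups kept for 3 days (P3). Preterm and term pups differed in delivery, feeding and housing as well as in maturity, and these cannot be told apart.

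The rabbit lung at the 28th day is in the saccular phase, in which thick-walled sacs line the future gas exchange region and surfactant production is starting. During the following week of normal growth the septa thin out, secondary crests divide the sacs into alveoli, the capillary bed expands and immune cells populate the tissue. A preterm pup goes through these days in air, so its lung has to clear fluid, exchange gas and meet microbes and oxygen while the sacs are still immature. Lung RNA was read near the 3′ end of each messenger with the QuantSeq FWD kit, and whole right lung was used. A lower level of a transcript may therefore stand for fewer cells of a type or for less RNA per cell, which cannot be told apart in bulk tissue.

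The 6 libraries held between 6930854 and 7778938 counts and between 15574 and 15966 genes with at least 1 count. Genes are listed by Ensembl identifier and were not paired with symbols here, so the roles of the genes, the defining markers of lung cells and the share of blood or immune cells were not analysed. Levels are given as CPM, the count of a gene scaled to the same total in every library. Fold changes are on the log2 scale with their standard error (SE).

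Between P0 and P7, 588 of 13791 genes tested changed, 426 higher and 162 lower at P7. These were 4.26% of the genes tested, 3.09% higher and 1.17% lower, and 72.4% of the changed genes rose. The test was edgeR's quasi-likelihood test over the 12 libraries of run 2, at an absolute fold change above 2 and a Benjamini-Hochberg adjusted p of at most 0.05, and 2903 genes had an unadjusted p under 0.05. The median change was 2.22 among the genes that rose, with an interquartile range of 1.59 to 2.86, and -1.45 among those that fell, with an interquartile range of -2.18 to -1.15. Without P7 animal 4 the number of changed genes was 384, and 340 of them were among the 588.

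Fold changes can be placed for genes with at least 1 count in both groups. Of the 420 such genes that rose, 169 rose by up to 4-fold, 164 by 4 to 8-fold, 60 by 8 to 16-fold and 27 by more than 16-fold. Of the 160 such genes that fell, 117 stayed within 4-fold, 22 fell by 4 to 8-fold, 14 by 8 to 16-fold and 7 by more than 16-fold. All 162 fallen genes and 424 of the 426 risen genes had CPM values that did not overlap between the 3 P0 and the 2 P7 animals. Over all genes tested such a separation was found for 36.4%. The same animals chose the changed genes, so their separation is largely a result of that choice.

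Changed genes were most frequent at moderate abundance. By the mean over the 5 libraries, 24 genes changed among the 2184 below 1 CPM (1.1%), 18 up and 6 down. Between 1 and 10 CPM it was 5.93% of 4135 genes, with 192 up and 53 down. Between 10 and 100 CPM it was 4.8% of 5495 genes, with 182 up and 82 down, and from 100 CPM upward 2.78% of 1977 genes, with 34 up and 21 down. Rises outnumbered falls in every class, and their share of the changed genes went from 78.4% in the 1 to 10 CPM class to 61.8% among the most abundant genes.

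Genes without a count in one group were few. Among the genes that rose, 6 had 0 counts in all 3 P0 libraries and between 16 and 32 counts in the P7 libraries together, which makes them at least 7.82-fold to at least 15.6-fold higher when 3 counts over the P0 group are taken as the floor. P7 animal 1 held between 1 and 31 counts of each of these 6. Among the genes that fell, 2 had 0 counts in both P7 libraries of run 2 and 20 and 26 counts over the P0 libraries, at least 4.54-fold and at least 5.91-fold lower. In P7 animal 1 they had 1 and 2 counts. With these genes set to their bounds the medians of the risen and fallen genes were 2.22 and -1.45. A further 13 risen and 8 fallen genes had only 1 to 3 counts in the lower group, so that their fold changes are imprecise.

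Of the 12 largest fitted rises among changed genes whose animals did not overlap, 6 were genes with 0 counts at P0, for which only the bounds above hold. The other 6 lay between 5.45 and 7.87 on the log2 scale, 2 of them with only 1 to 3 counts at P0. Of the 12 largest fitted falls 2 had 0 counts at P7. The other 10 lay between -4.92 and -3.93, 4 of them with only 1 to 3 counts at P7. The median level over the 5 libraries was 1.89 CPM for the 12 rises and 2.65 CPM for the 12 falls. From a mean of 10 CPM upward the largest rises were those of ENSOCUG00000017744 and ENSOCUG00000002424, and the largest falls those of ENSOCUG00000013068 and ENSOCUG00000023019. The values of these 4 genes are given animal by animal.

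ENSOCUG00000017744 had 3.1, 3.75 and 1.66 CPM in P0 animals 1, 3 and 4, and 661 and 727 CPM in P7 animals 3 and 4. The groups were far apart and the P7 animals close together. The log2 fold change was 7.87 (SE 0.49, adjusted p = 7.15e-06, edgeR), a 233-fold rise, and it passed the test under each of the 15 alternatives in which the gene was tested. P7 animal 1 was at 822 CPM, above both other P7 animals. By day 3 the gene was already at 567, 367 and 849 CPM in the P3 animals, a range that includes the P7 values of run 2. In F28 it had 4.64 and 0.542 CPM and in T35 3.5 and 2.79 CPM, and in the 45 fetal and term libraries of all runs it never exceeded 11.8 CPM (median 0.656). F28 animal 2, at 4.64 CPM in run 2, had 0.335 and 0.566 CPM in runs 1 and 3, and the part of the run in the low values was not tested. The change from F28 to T35 was 0.46 (SE 0.7, adjusted p = 0.77), and the difference between the preterm and the term change was 7.41 (SE 0.94, adjusted p = 0.02, edgeR).

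ENSOCUG00000002424 rose in each preterm pup kept alive, but to very different levels. P0 animals 1, 3 and 4 had 8.9, 6.64 and 6.36 CPM, while P7 animals 3 and 4 had 172 and 1650 CPM and P7 animal 1 had 2550 CPM. The P3 animals were spread as widely, at 49, 587 and 1500 CPM. No P3 or P7 animal overlapped with P0. The log2 fold change from P0 to P7 was 6.92 (SE 1.3, adjusted p = 0.00678, edgeR), and without P7 animal 4, which decided much of its size, it was 4.46 with an adjusted p of 0.0669. The adjusted p with limma-voom was 0.149. Over all alternatives it ranged from 2.16e-13 to 0.149. In the 45 fetal and term libraries the gene lay between 0.138 and 44.6 CPM, with the highest values at T42 (37.3, 43.1 and 44.6 CPM). The difference from the term change was 6.37 (SE 1.83) and did not pass the test (adjusted p = 0.19, edgeR).

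ENSOCUG00000013068 fell in preterm and in term pups. It had 62.3, 118 and 94.6 CPM in P0 animals 1, 3 and 4 and 4.45 and 6.72 CPM in P7 animals 3 and 4, a log2 fold change of -4.08 (SE 0.82, adjusted p = 0.00971, edgeR). P7 animal 1 had 2.44 CPM and the P3 animals 3.23, 5.24 and 6.62 CPM, all below every P0 animal. Without either P7 animal of run 2 the call was lost, with adjusted p values of 0.0946 without animal 3 and 0.0698 without animal 4, and the change stayed at -3.78 and -4.44. In F28 the gene had 121 and 315 CPM, and in T35 0.125 and 11.6 CPM, a change of -5.15 (SE 0.87, adjusted p = 0.0051). The term and preterm changes differed by 1.07 (SE 1.12, adjusted p = 0.73), an SE wide enough to allow a difference in either direction.

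ENSOCUG00000023019 was high in the pups harvested 1 h after preterm delivery. P0 animals 1, 3 and 4 had 14, 75.2 and 63.9 CPM, while the F28 fetuses of the same run, of the same gestational day, had 2.84 and 1.36 CPM. By day 3 it was down to 4.64, 2.82 and 2.59 CPM, and P7 animals 3 and 4 had 4.31 and 2.2 CPM. The log2 fold change from P0 to P7 was -4.03 (SE 0.64, adjusted p = 0.00239, edgeR). P7 animal 1 had 13.2 CPM, just under the lowest P0 animal. With only the 5 libraries of P0 and P7 of run 2 the change was -4.02 (adjusted p = 0.0242, edgeR). With P7 animal 1 added to these, and no run term, the change was -2.95 (adjusted p = 0.0517, edgeR). The call was also lost with limma-voom (adjusted p = 0.0546) and with 21 animals of all runs (adjusted p = 0.322), and over all alternatives the adjusted p lay between 1.46e-11 and 0.322. From F28 to T35 the gene changed by 1.72 (SE 0.73, adjusted p = 0.2), and the difference between the courses was -5.76 (SE 0.96, adjusted p = 0.042). Single fetal and newborn term animals were high as well, up to 81.5 CPM at F29 and 154 CPM at T31.

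**Figure D1:**
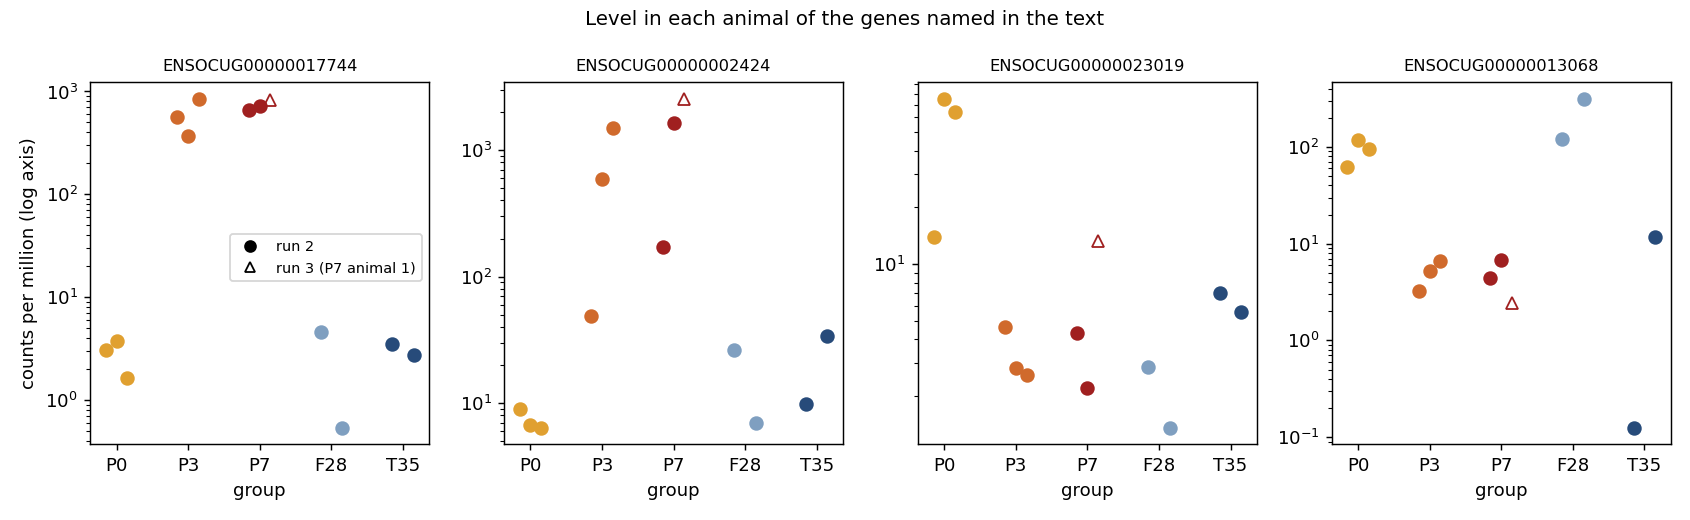
Level of the 4 named genes in each animal, in CPM on a log axis that differs between panels, for P0, P3 and P7 preterm pups and for F28 and T35 of run 2. Filled circles are libraries of run 2, and the open triangle is P7 animal 1 of run 3, which lies above both other P7 animals in ENSOCUG00000017744 (822 CPM) and close to the lowest P0 animal in ENSOCUG00000023019 (13.2 CPM).

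The third P7 animal had entered no call, and its values were compared with the direction of the 588 changes. Against the mean of the P0 animals, 583 of the 588 genes (99.1%) moved the same way, 424 of 426 up and 159 of 162 down. Over all 13791 genes tested the share with the same sign was 69.7%. The median difference was 2.01 for the genes that had risen and -1.25 for those that had fallen, and 382 of the risen and 106 of the fallen genes differed by more than 2-fold. With all 3 P7 animals 414 risen and 149 fallen genes still had no overlap with P0. Over all 13791 genes tested this held for 3581, and all animals but P7 animal 1 had also chosen the changed genes. The animal was sequenced in run 3 and the P0 animals in run 2, and 3 fetal and term animals sequenced in both runs gave an estimate of the difference between runs. With that difference subtracted, 580 of the 588 genes kept their sign (98.6%), beside 70.7% of all genes tested.

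Both of these counts use the P0 animals from which the changes were called. A comparison that shares no library with them was that of P7 animal 1 with the 2 F28 fetuses sequenced in run 3. There 539 of the 588 genes had the same sign (91.7%, beside 61.7% of all genes tested), 411 of 426 up with a median of 1.96 and 128 of 162 down with a median of -0.793. Whether rises and falls differed in this respect was not tested. This is 1 animal, and no p is given.

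**Figure D2:**
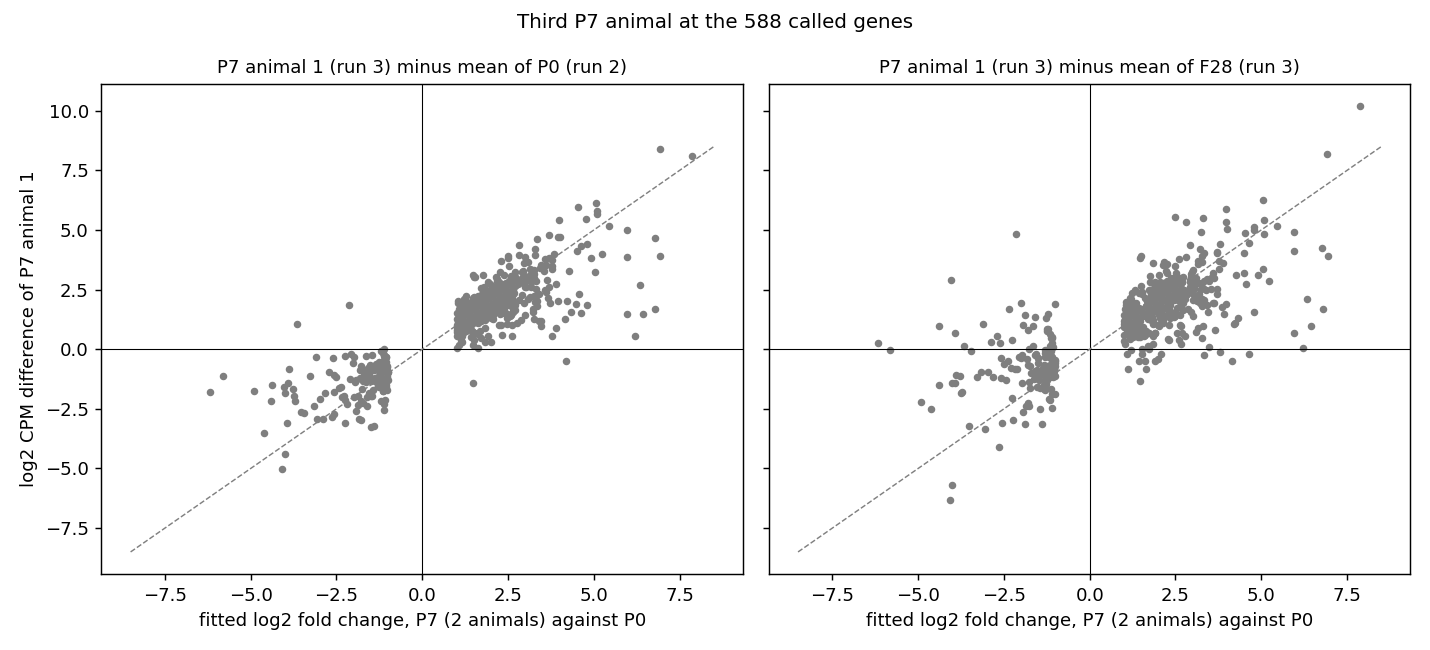
Difference in log2 CPM of P7 animal 1 from P0 of run 2 (left) and from F28 of run 3 (right), against the fitted log2 fold change of the other P7 animals over P0, with 1 point per changed gene and a dashed line of equality. On the left 583 of 588 points lie in the quadrants of equal sign, and on the right 539.

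Where the P3 pups stood between the ends of the week was read from their mean log2 CPM. For the genes that rose, P3 had covered a median of 64.9% of the way from P0 to P7, with an interquartile range of 53.9% to 75.9%. Of these 426 genes 325 had covered 50% or more without passing P7, 77 less than 50%, 21 were beyond the P7 mean and 3 had not left the P0 side. For the genes that fell the median was 66.1%, with an interquartile range of 48.6% to 84%. There 105 of 162 had covered 50% or more, 43 less, 13 had passed the P7 mean and 1 was on the P0 side. These shares use the P0 and P7 animals that chose the genes and are a description.

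The changed genes made up a small part of all RNA, and those that rose took a larger part at P7. The 426 genes that rose held 0.806%, 0.854% and 0.849% of all counts in P0 animals 1, 3 and 4. They held 3.52% and 3.44% in P7 animals 3 and 4 and 3.82% in P7 animal 1, which had no part in choosing them. In the P3 animals the share was 2.44%, 2.1% and 2.41%, between both groups and without overlap with either. The F28 fetuses were near P0, at 0.91% and 0.769%, and the T35 pups were at 2.06% and 2.25%, the first just under the lowest P3 animal and the second within the range of P3. At P7 the 10 most abundant of these genes accounted for 39.6% of the counts of the 426. The 162 genes that fell took 1.16%, 1.27% and 1.18% of the counts at P0, 0.514% and 0.473% at P7 and 0.499% in P7 animal 1. In T35 they took 0.576% and 0.52%.

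**Figure D3:**
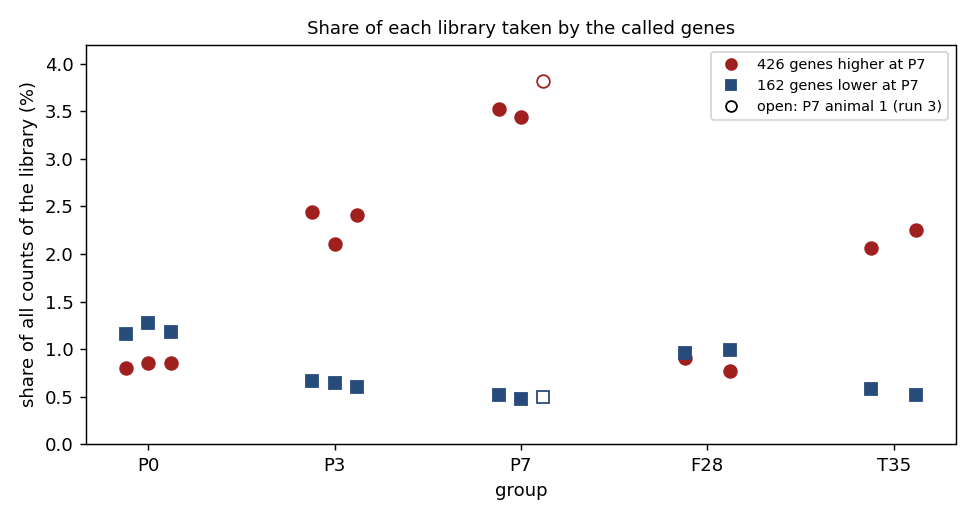
Percentage of all counts of a library taken by the 426 genes that rose (circles) and the 162 genes that fell (squares) from P0 to P7, for each animal, with P7 animal 1 of run 3 open. The risen genes go from 0.806% to 0.854% at P0 up to 3.44% to 3.82% at P7.

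The spread between animals of a group was read at the same genes. They were called for changes that were large beside this spread, so a spread smaller than the change follows from that choice. At the genes that rose, P7 animals 3 and 4 differed by a median of 0.355 on the log2 scale, and at those that fell by 0.343, beside 0.28 over all genes tested. More than 2-fold apart were 52 of the 426 risen genes (12.2%) and 14 of the 162 fallen genes (8.64%), beside 10.9% of all genes. More than 4-fold apart were 10 risen genes, of which ENSOCUG00000002424 was one, and 2 fallen genes. P7 animal 4 was the higher of both in 197 of the 426 risen genes (46.2%) and in 72 of the 162 fallen genes (44.4%), beside 44% of all genes. Among the 12 largest fitted rises 10 were higher in P7 animal 4, and among the 12 largest fitted falls 2 were. Between the lowest and highest of the 3 P0 animals the median range was 0.618 at the risen and 0.645 at the fallen genes, beside 0.471 over all genes, and a range over 3 animals is wider than one over 2.

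The term course over the same gestational days was the change from F28 to T35, which used other animals of run 2. It changed 471 genes, 326 up and 145 down (3.42%, 2.36% and 1.05% of the genes tested, edgeR). This number fell to 243 and 231 without F28 animal 2 or 9, and to 296 and 288 without T35 animal 6 or 11. Of the 426 genes that rose in preterm pups 171 also rose at term (40.1% of the preterm and 52.5% of the term rises). Of the 162 that fell 48 also fell at term (29.6% of the preterm and 33.1% of the term falls). No preterm rise was a fall at term, and 1 preterm fall was a rise at term.

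Most of the other genes moved the same way at term without passing the test. Of the 426 preterm rises, 101 had a term change over 2-fold in the same direction that was not called, 126 a smaller one and 28 the opposite sign. Of the 162 preterm falls the numbers were 15, 65 and 33. In all, 93.4% of the rises and 79% of the falls had the same sign at term. The share of all genes tested with the same sign in both courses was not counted. How far these 2 percentages exceed it is therefore not known. The median term change of the risen genes was 1.3, beside 2.22 in the preterm pups, and that of the fallen genes -0.655, beside -1.45, while the median term change of all genes was 0.000552. The genes were chosen for their preterm change, so that a smaller median at term is not by itself a difference between the courses.

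The difference between the courses was therefore tested gene by gene, by subtracting the term change from the preterm change of each gene. It was called for 19 genes, 0.138% of those tested, 10 with a higher (0.0725%) and 9 with a lower (0.0653%) preterm change. Of the 588 changed genes 6 were among them. The same P0 and P7 animals had chosen the 588, which favours a larger preterm change. The 6 genes were 3 that rose and 3 that fell, each with the larger change in the preterm pups. ENSOCUG00000017744 and ENSOCUG00000023019 were 2 of these. The other rises had preterm changes of 2.46 and 2.71 and term changes of -0.04 and -0.04, and the other falls -2.58 and -1.27 beside -0.06 and 0.89. Of the other 13 genes 7 were called at term and not between P0 and P7. Among the 7, ENSOCUG00000004160 rose by 0.93 from P0 to P7 (adjusted p = 0.0028, edgeR), beside 2.46 at term. It missed the call by its fold change alone. A pair of the 7 fell at term by 7.01 and 5.29 on the log2 scale, with -0.56 and -0.42 in the preterm pups. In 13 of the 19 genes the fitted changes had opposite signs, which a choice by the size of the difference favours. Among these were the rises with term changes of -0.04, and ENSOCUG00000006641, with -0.07 in the preterm pups, values that lie near 0.

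This count depended on single animals. It was 0 without P7 animal 4 or without T35 animal 6, with 1371 and 1606 genes at an unadjusted p under 0.05. It was 4 and 8 without F28 animal 2 or 9, and 166 with DESeq2. That the difference passed for 6 of the 588 genes does not show that the remaining ones changed alike.

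**Figure D4:**
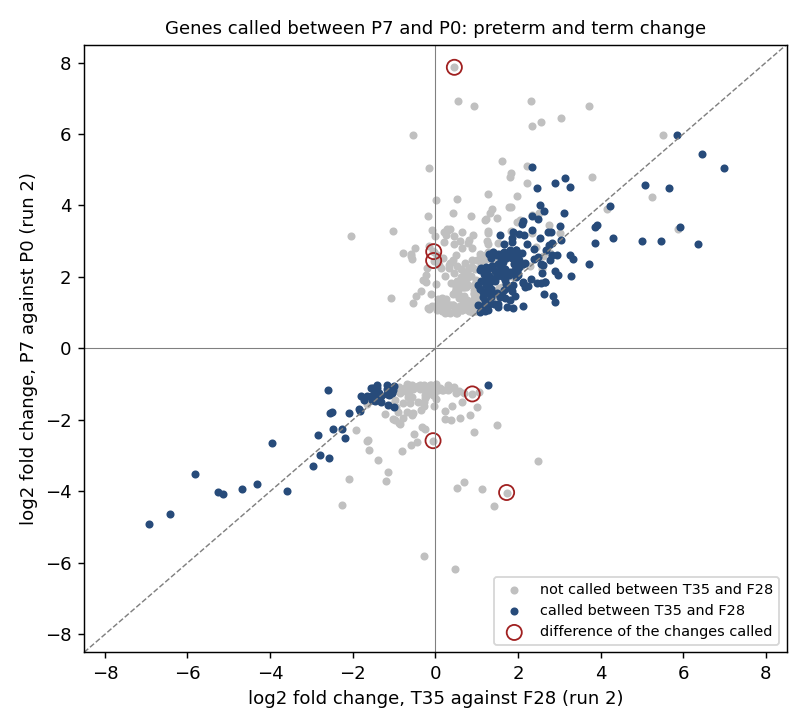
Log2 fold change from P0 to P7 against that from F28 to T35, both of run 2, for the 588 genes changed between P0 and P7, with a dashed line of equality. Blue points were also called between F28 and T35, grey points were not, and circles mark the 6 genes whose difference between the courses was called.

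The level of the changed genes was then followed through the whole series, as the median over the genes of the log2 difference from the F28 libraries of the same run. The genes that rose from P0 to P7 lay on average below F28 on the earlier fetal days and above it after term birth. Their median was -0.91 at F20 (mean of 4 animals, -1.22 to -0.378) and -0.67 at F23 (4 animals, -0.788 to -0.398). F20 and F23 samples were whole lungs, unlike the right lungs of the later days. At F25 the median was -0.48 (3 animals of run 1) and at F27 -0.35 (3 animals, -0.675 to 0.0184). It was 0.27 at F29 (3 animals, 0.164 to 0.325). At T31 the medians of single animals ran from 0.237 to 1.01, and at T35 from 0.929 to 1.15 over the libraries of all runs. T37 lay at 0.802 to 1.16, around the T35 values. The highest normal values were at T42, on the 42nd day, with 1.34 to 1.39 in the 3 animals.

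In preterm pups the same genes, chosen for being high at P7, went from the fetal level to values above those of every term library. P0 was at -0.0286 to 0.0429, within the range of the F28 libraries (-0.127 to 0.106), and P3 at 1.36 to 1.37. P7 animals 3 and 4 were at 2.13, and P7 animal 1, which did not choose the genes, was at 1.96 against F28 of its own run. In that run T35 was at 0.929 to 0.955, T37 at 0.802 to 1.16 and T42 at 1.34 to 1.39. The median over all genes tested was between -0.157 and 0.198 in every library of the series.

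The genes that fell showed another pattern. At F20 and F23 they lay below F28, at -0.48 and -0.17 on average, and from F25 to F29 near it, between -0.0708 and 0.128. At T31 they were between -0.579 and -0.187 and at T35 between -0.897 and -0.718. P0 stood above the fetal level, at 0.148 to 0.266, while P7 animals 3 and 4 were at -1.14 and -1.12 and P7 animal 1 at -0.793. The value of P7 animal 1 was inside the range of T35 and T42 (-0.9 to -0.736 at T42). It was below all 4 animals of T37 (-0.718 to -0.452), which were of the same run. The position of the other P7 animals below T35 and T42 was thus not seen in the animal that had not chosen the genes.

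**Figure D5:**
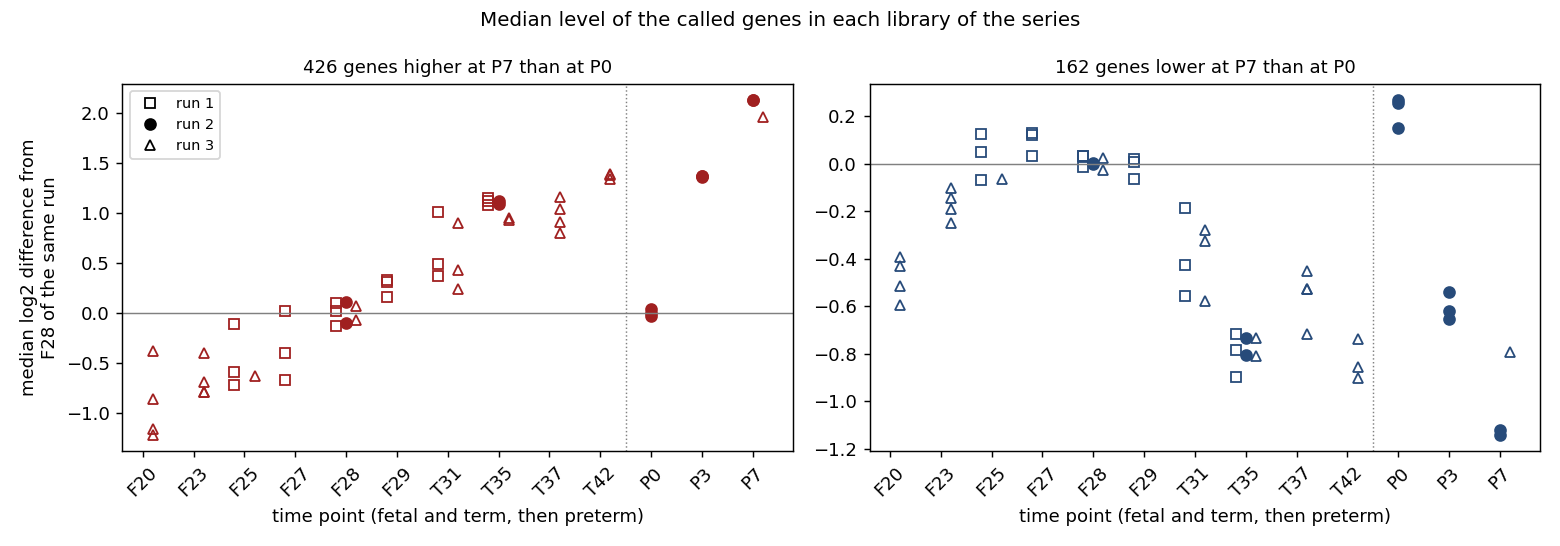
Median log2 difference from F28 of the same run of the genes that rose (left) and fell (right) from P0 to P7, with 1 point per library at each time point, squares for run 1, filled circles for run 2 and triangles for run 3. The risen genes reach 1.96 to 2.13 at P7 and at most 1.39 in term animals.

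Some of the genes that fell stood above the fetal level at P0. Of the 162 genes that fell, 29 were more than 2-fold higher in P0 than in F28 and 2 more than 2-fold lower, with a median difference of 0.18. In 28 of the 29 the P0 and F28 animals of run 2 did not overlap in CPM. Over all genes tested 10.1% had P0 above F28 without overlap, whatever the size of the difference. The share of all genes more than 2-fold higher was not counted. ENSOCUG00000023019 was 1 of the 29. Since the P0 animals chose the falls, raised P0 levels among them are in part the result of that choice. Of the 426 genes that rose, 389 were within 2-fold of F28 at P0, 22 above and 15 below, with a median difference of -0.00686.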

How the data were processed

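The authors deposited read counts per gene, without normalization, for 54 libraries. According to their methods the adapters were trimmed with BBduk, reads were aligned to OryCun2.0 with STAR and counted with HTSeq-count on the Ensembl annotation, and a custom script handled reads in unannotated 3′ UTRs. Versions are not given in the sources used here, nor whether the deposited counts include that step. All columns were matched to a sample by title, and 0 were left out. Of 29587 identifiers 0 could be paired with a symbol, so the lists of genes drawn up by symbol were not used.

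P7 was compared with P0 by edgeR 4.0.16 in R 4.3.3 (quasi-likelihood test, TMM) over the 12 run 2 libraries of P0, P3, P7, F28 and T35 with the group in the model, which leaves 7 residual degrees of freedom. Genes needed 0.5 CPM in at least 3 libraries. Contrasts of T35 with F28 and of both courses came from the same fit. SEs were derived from the fold change and its F statistic. Printed CPM values are counts relative to the library total, without TMM factors. Log2 CPM values of single libraries have a prior count of 2. The test was checked on simulated data. Alternatives used limma-voom (limma 3.58.1, the study's tool), DESeq2 1.42.0, RLE size factors, other filters, other sets of libraries, a block by animal number and each animal left out. Figures were drawn with matplotlib 3.10.9.

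The samples, lists and comparisons were chosen with earlier results of these data known. The rule for named genes asked for symbols and the 12 largest changes each way. It was applied without symbols, and the 4 genes named were chosen after their values were seen, as the largest changes at a mean of at least 10 CPM over the 5 libraries of P0 and P7. No use of molecular identifiers is stated, so floors of 3 counts cover counting error alone.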

Additional observations from a re-analysis of the deposited data

Results flagged for a closer look

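The change from P0 to P7 differed from that from F28 to T35 in 19 genes by the test of the difference itself (edgeR's quasi-likelihood test). Among the named genes the difference between the courses was 7.41 on the log2 scale for ENSOCUG00000017744 and -5.76 for ENSOCUG00000023019. P0 and F28 share the gestational day and the Caesarean section, but P0 pups were kept in air for 1 h. P7 and T35 share the gestational day but not the delivery, feeding and housing of the pups. They also differ in the time since birth, 7 days for P7 and 4 days for T35.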

How the results depend on the processing

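Of 17 alternatives for P7 against P0, 15 gave a number of genes within 1.5 times of 588. The adjusted p alone gave 1091, and leaving out single animals gave 384 to 527. The share of rises was between 58% and 82.3%. The T35 against F28 count stayed within 1.5 times of 471 in 6 of 12 alternatives. It was 717 without a filter on low counts, 869 by the adjusted p alone and 231 to 296 with 1 animal left out. The difference of the courses stayed within 1.5 times of 19 in 11 of 18 alternatives, and was 166 with DESeq2, 290 without a filter on low counts, 5 with 21 animals and the run in the model, and 0 to 28 with 1 animal left out. The causes of these shifts were not tested, and leaving out an animal also makes its group smaller. The third P7 animal gave 539 to 580 genes in place of 583. The fitted change from P0 to P7 of the named genes kept its sign under every alternative fit. Against F28 of run 3 P7 animal 1 was higher by 2.89 on the log2 scale for ENSOCUG00000023019, opposite to its fall from P0.

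The labels give P0 and P7 animals the same numbers without saying that a number marks a litter. With the animal number as a replicate block over the 5 libraries, 502 genes were called, beside 442 without the block, and 427 of the 502 were among the 588. The differences between animals 3 and 4 of both groups correlated by 0.122 across genes. With P7 animal 1 included and the run difference subtracted, the correlations of equal numbers were 0.116, 0.21 and 0.023. Each of the 3 P7 animals correlated best with its own number among P0. Whether a number marks a litter cannot be told from these values. The main test was run without the block.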

Other observations

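The animals sequenced in more than 1 run show how far low values can be read. F28 animal 2 had 4.64 CPM of ENSOCUG00000017744 in run 2, and 0.335 and 0.566 CPM in runs 1 and 3. Run 2 held 5 preterm libraries with 367 to 849 CPM, and run 3 held P7 animal 1 at 822 CPM. F28 animal 9 had 0.542 CPM in run 2 and 0.151 CPM in run 1. In run 1, which held no preterm library, T31 animal 10 had 3.79 CPM and T35 animal 1 had 4.2 CPM. For ENSOCUG00000002424 F28 animal 2 had 26.2 CPM in run 2, and 5.2 and 8.77 CPM in runs 1 and 3. T35 animal 6 had 3.46, 3.5 and 4.35 CPM of ENSOCUG00000017744 in runs 1, 2 and 3. The P0 level of ENSOCUG00000017744, 1.66 to 3.75 CPM, comes from run 2 only, and its 233-fold rise rests on that level. The part of the run in these low values was not tested.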
